A study of Homo sapiens with 20 samples.

Results

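The vehicle-enriched BCOR peaks are 267 chromatin regions (hg19) that the authors list as bound by BCOR more in vehicle-treated than in hormone-treated cells. All 267 regions of the deposited list were taken, out of 11909 BCOR peaks in all; the other lists hold 3055 dex-enriched and 8587 shared peaks. How a peak was put in its list is not given in the sources used here. Each peak is described by the distance of its centre to the nearest transcript start, and the gene of that start is called its nearest gene. Nearness does not show that a peak acts on that gene.

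BCOR is a corepressor that binds the transcriptional repressor BCL6 and is a core subunit of a variant Polycomb complex, PRC1.1, together with PCGF1, KDM2B and a RING1 or RNF2 ubiquitin ligase. PRC1.1 is brought to unmethylated CpG-rich promoters through KDM2B and places ubiquitin on histone H2A. Dexamethasone (dex) is a synthetic glucocorticoid that activates the glucocorticoid receptor (GR), a nuclear receptor that turns genes on and off from sites often far from their promoters.

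HEK293-GR cells were used throughout, a line derived from human embryonic kidney that carries constitutively expressed GR, and they were held in steroid-depleted medium for 48 h. RNA was measured in 4 groups of 4 libraries: siBCOR dex, siBCOR vehicle, siNON dex and siNON vehicle. An siRNA pool against BCOR (siBCOR) or a non-targeting pool (siNON) was given at 20 nM for 72 h, and 100 nM dex or its ethanol vehicle for 6 h. BCOR ChIP-seq was made after 1 h of 100 nM dex or of vehicle, with 2 libraries each, in cells for which no siRNA is named. Hormone was thus present for a shorter time in the binding data than in the RNA data. The depletion rests on 1 siRNA pool in 1 cell line.

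The transcripts used for the genes held 18580294 to 28054808 counts per library. BCOR itself stood at 15.5, 14.8, 14.9 and 13.8 counts per 1e6 counts (CPM) in siBCOR dex, against 96.8, 102, 106 and 70.6 CPM in siNON dex. In vehicle its values were 23.5, 22.3, 21.8 and 21.9 CPM in siBCOR vehicle, against 227, 210.3, 159 and 189 CPM in siNON vehicle. The siBCOR libraries lay far below the siNON libraries, and BCOR was also lower with dex, by a log2 of -0.60 in siBCOR (adjusted p = 0.00155, edgeR) and -1.06 in siNON cells (adjusted p = 1.45e-06). Of the 7 markers of the line, the neurofilament gene NEFL lay between 128 and 221 CPM, KRT8 between 309 and 608 and VIM between 316 and 601. KRT18 lay between 152 and 242 CPM and INA between 51.7 and 72.6. NEFM (6.63 to 10.2 CPM) and PAX2 (1.88 to 5.33 CPM) were much lower, and the 7 markers summed to 1113 to 1494 CPM. The leukocyte marker PTPRC did not exceed 0.0967 CPM and the hepatic marker ALB 0.247, while COL1A1 reached 44.1 CPM and CD68 15.5 CPM among the fibroblast and leukocyte lists. Replicate 4 of siNON dex and replicate 3 of siNON vehicle stood apart from their group: the SD over genes of their log2 difference from the mean of the other replicates was 0.302 and 0.288, against 0.123 to 0.268 in the other 14 libraries. The highest of those 14 was siBCOR vehicle replicate 2 at 0.268, close to siNON vehicle replicate 3. The next below it was siNON dex replicate 3 at 0.195.

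For 32 of the 267 peaks the centre fell within 250 bases before to 50 bases after a transcript start, and 4 promoters of that span are shown because their peaks sit almost on the start of the gene. The sequences are from RefSeq (GRCh38.p14), 300 bases each, 5′ to 3′ on the strand of the gene, and the capitals mark the box GGGCGG or its reverse complement, a sequence bound by factors of the SP and KLF families. ILK encodes a kinase-like adaptor of integrins, with its peak centre 9 bases before the start. VPS26C encodes a subunit of the endosomal retriever complex, with the centre 38 bases after the start. The centre lay 32 bases after the start of C16orf74 and 5 bases before that of WSCD2. Peak positions are on hg19 and the sequences on the other build, so the start may not be the same base in both.
C16orf74, chr16:85751047-85751346, minus strand: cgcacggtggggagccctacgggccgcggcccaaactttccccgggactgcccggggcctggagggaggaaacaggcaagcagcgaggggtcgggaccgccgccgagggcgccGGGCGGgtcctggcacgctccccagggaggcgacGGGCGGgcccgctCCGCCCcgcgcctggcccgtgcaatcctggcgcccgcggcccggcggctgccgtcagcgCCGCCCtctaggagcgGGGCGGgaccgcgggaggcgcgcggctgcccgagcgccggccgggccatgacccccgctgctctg
ILK, chr11:6603524-6603823, plus strand: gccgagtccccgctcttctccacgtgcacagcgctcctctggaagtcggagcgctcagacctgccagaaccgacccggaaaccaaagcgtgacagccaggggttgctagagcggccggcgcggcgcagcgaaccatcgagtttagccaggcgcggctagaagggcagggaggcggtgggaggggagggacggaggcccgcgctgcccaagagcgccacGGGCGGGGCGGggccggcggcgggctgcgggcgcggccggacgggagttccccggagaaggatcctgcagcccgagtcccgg
VPS26C, chr21:37268059-37268358, minus strand: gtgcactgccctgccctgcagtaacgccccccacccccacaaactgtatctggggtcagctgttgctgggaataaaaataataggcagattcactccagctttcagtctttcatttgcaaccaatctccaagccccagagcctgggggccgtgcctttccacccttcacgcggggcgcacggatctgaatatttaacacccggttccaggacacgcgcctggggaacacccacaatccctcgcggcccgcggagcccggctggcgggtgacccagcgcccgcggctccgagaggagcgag
WSCD2, chr12:108131536-108131835, plus strand: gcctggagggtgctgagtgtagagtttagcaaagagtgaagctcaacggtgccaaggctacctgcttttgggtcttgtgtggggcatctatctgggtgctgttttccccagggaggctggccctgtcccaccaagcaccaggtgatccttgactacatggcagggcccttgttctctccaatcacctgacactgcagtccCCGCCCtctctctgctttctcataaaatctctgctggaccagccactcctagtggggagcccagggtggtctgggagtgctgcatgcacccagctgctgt
The C16orf74 promoter held 5 boxes and 44 CpG dinucleotides with a GC content of 80.7%, and the ILK promoter held 2 boxes, 37 CpGs and 73.0% GC. VPS26C had 0 boxes, 20 CpGs and 62.0% GC, and WSCD2 had 1 box, 2 CpGs and 57.7% GC. Boxes were counted on both strands and overlapping ones each counted, as for the pair at ILK, and 44.6% of the 27305 RefSeq promoters of this length hold at least 1. A match is a description of the letters and not a bound site. Only 73.1% of the genes with a peak at the promoter had a sequence in the table, so shares of motifs over the whole list were void and are not given.

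The vehicle-enriched peaks lay at promoters more than either other list. A centre within 1 kb of a start was found for 130 of 267 peaks (48.7%, exact 95% interval 42.6 to 54.9), against 6.97% (6.09 to 7.93) of dex-enriched and 35.6% (34.6 to 36.6) of shared peaks. A further 85 peaks (31.8%, 26.3 to 37.8) lay inside a transcript, against 56.2% of dex-enriched and 34.0% of shared peaks, and 52 (19.5%, 14.9 to 24.7) lay between genes, against 36.8% and 30.4%. The intervals cover counting error only, and peaks carry no replicate values, so no test across samples could be made. Introns and exons were not told apart, because the count table gives only the ends of each transcript.

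The centres were also close to the start within the promoter window. There were 20 peaks within 100 bases, 71 (26.6%) within 250 and 110 within 500, and the shares within 250 bases were 2.26% in the dex-enriched and 14.8% in the shared list. The median distance of promoter peaks was 231 bases, against 405 for dex-enriched and 292 for shared promoter peaks. Over all 267 peaks it was 1160 bases, with quartiles of 239 and 23717, against medians of 29427 bases for dex-enriched and 6806 for shared peaks. Of the 130 promoter peaks, 85 lay downstream of the start and 45 upstream or on it. Farther out, 42 peaks lay 1 to 10 kb from a start, 55 at 10 to 50 kb and 40 beyond 50 kb, the farthest at 312277 bases.

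**Figure D1:**
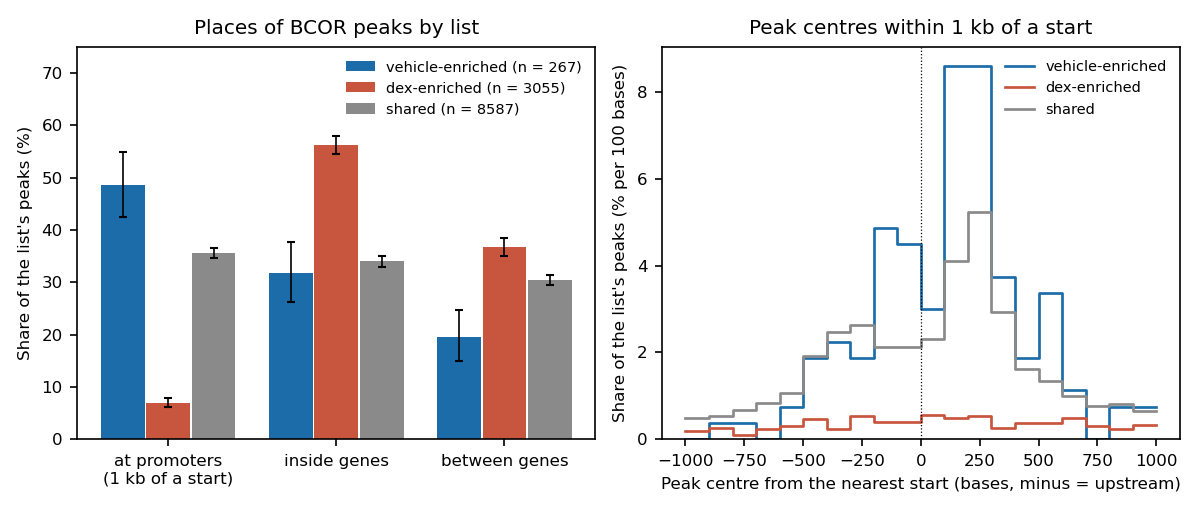
Left, share of each peak list (%) at promoters, inside genes and between genes, with exact 95% intervals; right, share of each list (% per 100 bases) by the distance in bases of the peak centre from the nearest start, upstream negative. The vehicle-enriched list reaches 48.7% at promoters, above the shared (35.6%) and dex-enriched (6.97%) lists, and its centres crowd close to the start.

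No vehicle-enriched peak overlapped a peak of another list by 1 base. This may follow from the way the lists were made, which is not given, and is not read as a result. A shared peak had its centre within 10 kb of 58 peaks (21.7%) and a dex-enriched peak within 10 kb of 15 (5.62%), so that 73 of 267 (27.3%) had such a neighbour. The median distance was 48683 bases to a shared and 245459 bases to a dex-enriched peak. Such counts and distances depend on how many peaks a list holds (267 vehicle-enriched, 3055 dex-enriched and 8587 shared). They are not read as a trait of the peaks. Between vehicle-enriched peaks the median distance to the next one was 2467010 bases, with 5143 at the closest. Chromosome 1 held 28 of them, chromosomes 5 and 17 held 24 each, and chromosome 14 held 21 (7.87%, against 4.62% of dex-enriched and 5.22% of shared peaks). All but 2 were 319 bases wide, whereas 2997 dex-enriched peaks were 335 bases wide, and the shared list held 2319 peaks of the narrower and 3672 of the wider kind. With an authors' score of 0 throughout, the list has no ranking by strength.

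At a few loci a vehicle-enriched and a dex-enriched peak stood beside each other. At RFX6, which encodes a transcription factor of pancreatic endocrine cells, the vehicle-enriched peak (chr6:117198428-117198746) was centred 210 bases and the dex-enriched peak 552 bases after the start, 342 bases apart. The pairs at SCAF11, a serine/arginine-related splicing factor gene, and in the LEPR gene near LEPROT were 719 and 972 bases apart. CREB3L1, a membrane-bound transcription factor of the endoplasmic reticulum, had its pair 1058 bases apart and was centred 38856 bases upstream at the vehicle-enriched peak, and the pair at NXN, which encodes nucleoredoxin, was 1261 bases apart. At ERRFI1, an inhibitor of EGF receptors and a known glucocorticoid target, they were 1293 bases apart, 20021 and 21314 bases after the start and beyond the end of the gene.

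The 267 peaks had 264 nearest genes, of which 214 code for protein and 45 are noncoding RNA genes. LMO1, LINC01629 and LINC01389 had 2 peaks each. At 24 of the promoter peaks the start of another gene also lay within 1 kb, among them RRP8 at ILK, DAP3 at YY1AP1, DGKE at C17orf67 and ISL1 at LOC642366. A dex-enriched peak also had as its nearest gene 43 of the 264 (16.3%, which is 1.80% of the 2385 genes nearest to dex-enriched peaks), and a shared peak 108 (40.9%, 1.76% of 6148). For 140 genes the only peaks with that nearest gene were vehicle-enriched. Of the 85 peaks inside genes, 61 lay in a transcript of their nearest gene.

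Genes with a vehicle-enriched peak at the promoter were mostly active in every group. Per length, their median level was 8.92 reads per kilobase and 1e6 counts (RPKM) in siBCOR dex, 7.76 in siBCOR vehicle, 7.68 in siNON dex and 7.77 in siNON vehicle. In siNON vehicle 86.2% of them (exact 95% interval 79.0 to 91.6) reached 1 RPKM, against 68.9% of genes with a dex-enriched, 83.1% of genes with a shared peak at the promoter and 48.2% of all 27896 gene symbols. Genes of peaks inside and between genes had medians of 1.42 and 1.57 RPKM in siNON vehicle, and 54.1% and 52.9% of them reached 1 RPKM. Over all 264 genes the median was 4.64 RPKM in siNON vehicle, against 2.35 for the nearest genes of dex-enriched, 3.62 for those of shared peaks and 0.770 for all symbols. The 5 highest per length were CAPNS1, the small calpain subunit, at a mean of 247 RPKM over all libraries, ETFA of mitochondrial fatty acid oxidation at 181, ODC1 of polyamine synthesis at 178, UQCRC1 of respiratory complex III at 175 and FKBP4, a cochaperone of steroid receptors, at 162. Reads were missing altogether for 11 genes, among them LINC01629.

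Of the 264 genes, 216 had enough reads to be tested and 48 did not, and the tested genes were 126 of 130 with a peak at the promoter, 61 of 85 with one inside a gene and 30 of 51 with one between genes. Calls were made with edgeR at a false discovery rate of 0.05 across the 16432 genes tested. In siNON cells dex raised 22 (10.2%) and lowered 34 (15.7%) of the 216, against 10.7% raised and 8.64% lowered among all genes. In siBCOR cells dex raised 24 (11.1%) and lowered 37 (17.1%), against 10.5% and 12.5% of all genes. The median log2 fold change of the members was -0.02 in siNON and -0.07 in siBCOR cells, against -0.00 and 0.00 over all genes. The share raised was thus near the background, and the share lowered stood above it. Among the 4702 tested nearest genes of shared peaks dex lowered 13.5% in siNON and 19.4% in siBCOR cells, and among the 1672 of dex-enriched peaks 11.4% and 14.2%.

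The lowered genes were counted by the place of their peak. For a peak inside a gene the nearest gene was counted, which is not always the gene that holds the peak. Of genes with a peak at the promoter, dex in siNON cells raised 14 of 126 and lowered 11 (8.73%), which is near the background. Of the 61 tested nearest genes of inside peaks it raised 6 and lowered 16 (26.2%). Of the 30 tested nearest genes of peaks between genes it raised 2 and lowered 7 (23.3%). The same shares in siBCOR cells were 13.5% (17 of 126) lowered at promoters, 24.6% (15 of 61) inside and 16.7% (5 of 30) between genes. Genes that were also nearest to a dex-enriched peak were raised in 10 and lowered in 8 of 33 cases in siNON cells (30.3% and 24.2%). Genes that were also nearest to a shared peak were raised in 13 and lowered in 20 of 85 (15.3% and 23.5%), and in siBCOR cells 23 of them (27.1%) were lowered. Genes nearest to neither other list were raised in 7 and lowered in 11 of 118 in siNON cells (5.93% and 9.32%) and lowered in 12 (10.2%) in siBCOR cells, which is near or below the shares of all genes. Among tested genes with a shared peak at the promoter, dex lowered 12.4% in siNON and 18.4% in siBCOR cells. With a dex-enriched peak at the promoter it lowered 5.56% and 11.1%. Shares for inside and between peaks of those lists were not computed. No test was made of these differences between groups of members.

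**Figure D2:**
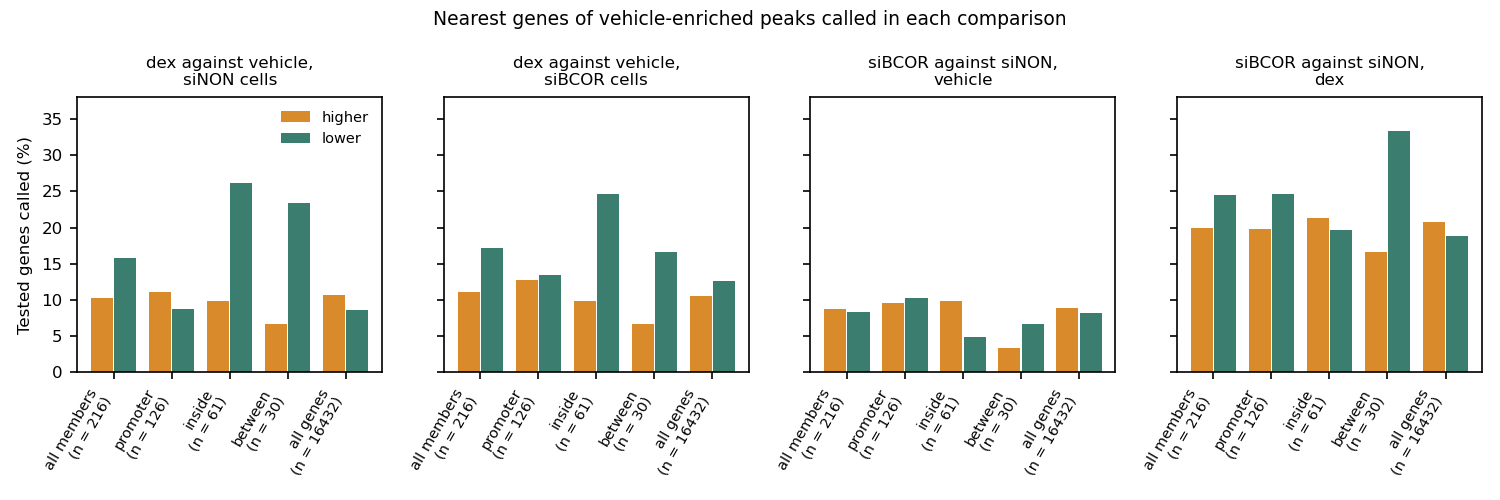
Share of tested nearest genes (%) called higher (orange) or lower (green) at a false discovery rate of 0.05 in each comparison, for all 216 members, for those of promoter, inside and between peaks, and for all 16432 genes tested. With dex in siNON cells 26.2% of the nearest genes of inside, 23.3% of between and 8.73% of promoter peaks were lower, against 8.64% of all genes.

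PDZD2, a scaffold protein with several PDZ domains, had the largest rise with dex and has its peak (chr5:31639284-31639602) 75 bases upstream of the start. It stood at 47.7, 46.9, 49.0 and 44.6 CPM in siBCOR dex, against 11.8, 10.2, 11.8 and 10.5 CPM in siBCOR vehicle. With siNON the gene had 55.2, 55.6, 59.7 and 50.1 CPM in dex, against 9.28, 11.7, 9.56 and 8.53 CPM in vehicle. All dex libraries lay far above all vehicle libraries with either siRNA, with log2 fold changes of 2.08 ± 0.0914 (SE) in siBCOR cells (adjusted p = 1.31e-11) and 2.50 ± 0.0926 in siNON cells (adjusted p = 1.09e-12). A dex-enriched peak lies 7989 bases from this peak, inside PDZD2.

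Other named genes rose less with dex and differ in function. CSGALNACT1, which starts chondroitin sulphate chains, rose by a log2 of 0.94 in siBCOR and 1.20 in siNON cells, and ACTL8, an actin-like protein, by 1.15 and 1.13. KCNN3, a calcium-activated potassium channel whose peak lies 99109 bases into the gene, rose by 1.02 and 1.12. MSX2, a homeobox factor of limb and skull development with its peak 192696 bases upstream, rose by 0.58 and 1.08, and ERRFI1 by 0.85 and 0.91. TNS2, a tensin of focal adhesions, rose by 1.12 in siNON cells, and its call in siBCOR cells (0.53, adjusted p = 0.0497) was lost in 14 of 22 alternatives, with an adjusted p of up to 0.157 without siBCOR dex replicate 3. NXN, with its peak 137 bases after the start, rose by 0.59 and 0.61.

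HRK, a BH3-only gene that promotes apoptosis, fell with dex, and its peak (chr12:117318866-117319184) is centred 208 bases after the start. It stood at 11.9, 12.7, 12.9 and 12.9 CPM in siBCOR dex, against 23.6, 27.6, 23.9 and 26.5 CPM in siBCOR vehicle. It stood at 11.7, 12.1, 13.5 and 10.7 CPM in siNON dex, against 21.3, 30.3, 20.4 and 22.1 CPM in siNON vehicle. Each dex library was below each vehicle library of the same siRNA, and log2 fold changes were -1.01 ± 0.113 (adjusted p = 2.94e-06) in siBCOR and -0.97 ± 0.114 (adjusted p = 5.24e-06) in siNON cells.

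ARID5B, a DNA-binding protein with an AT-rich interaction domain, fell likewise, with its peak (chr10:63784848-63785166) inside the gene and 23964 bases before the start of a shorter transcript. It stood at 17.6, 15.1, 19.1 and 15.5 CPM in siBCOR dex, against 41.4, 30.0, 37.0 and 32.8 CPM in siBCOR vehicle. It stood at 12.9, 14.7, 14.2 and 13.5 CPM in siNON dex, against 25.3, 32.9, 23.9 and 23.9 CPM in siNON vehicle. Again no dex library reached a vehicle library, with log2 fold changes of -1.07 ± 0.119 (adjusted p = 2.65e-06) and -0.94 ± 0.121 (adjusted p = 1.44e-05).

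Other named genes also fell with dex. PBX3, a homeobox factor with its peak 146544 bases into the gene, fell by 0.79 on the log2 scale in siBCOR and 0.77 in siNON cells, and EXT1, a subunit of the heparan sulphate polymerase, by 0.73 and 0.72. LRATD2 fell by 0.96 and 0.76. KCNJ12, an inward rectifier potassium channel, fell by 0.94 and 0.71, but its reads may be split with the near-identical KCNJ18, which overlaps it in the annotation. EFR3B, which anchors a lipid kinase at the plasma membrane, fell by 0.76 and 0.46, and ICOSLG, the ligand of a T cell costimulator, by 1.05 and 0.62. AP1S2, a subunit of the clathrin adaptor AP-1, was called lower in siNON cells (-1.11, adjusted p = 5.91e-05) and stood at -0.41 in siBCOR cells (adjusted p = 0.0734). ZBTB10, a zinc finger repressor, was likewise called in siNON cells (-0.82, adjusted p = 0.00266) and stood at -0.21 in siBCOR cells (adjusted p = 0.399). The difference between siRNAs was not called for AP1S2 (0.70, adjusted p = 0.206) or ZBTB10 (0.61, adjusted p = 0.232).

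The hormone comparisons in siBCOR and in siNON cells share no libraries. Of the 24 genes raised in siBCOR cells and the 22 raised in siNON cells, 16 were the same genes (7.41% of the 216, against 5.99% of all genes tested). Of the 37 and 34 lowered genes, 20 were the same (9.26%, against 5.62% of all genes), and 0 genes were called in opposite directions, against 2 of all 16432. C17orf67 (0.93, adjusted p = 9.78e-05) and ENPP4, of the ectonucleotide phosphodiesterase family (0.75, adjusted p = 0.00841), rose in siBCOR cells. In siNON cells C17orf67 was also called higher (0.49, adjusted p = 0.0266), a call lost in 7 of 22 alternatives with an adjusted p of up to 0.112 without siNON vehicle replicate 3, and ENPP4 stood at 0.20 (adjusted p = 0.54).

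**Figure D3:**
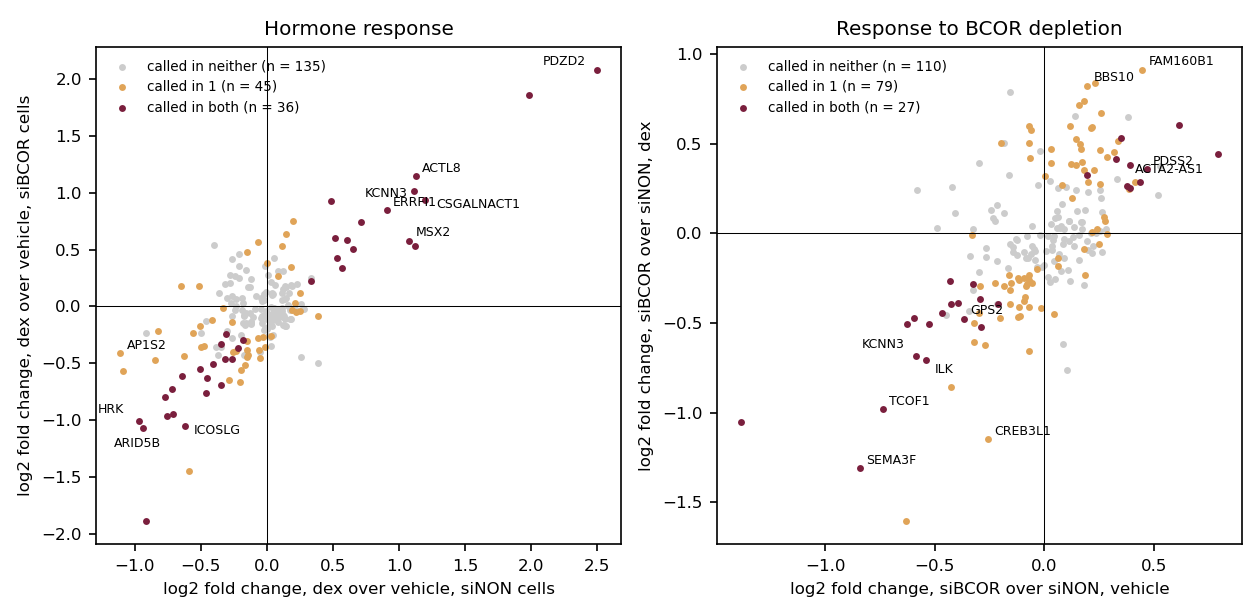
Log2 fold changes of the 216 tested nearest genes: left, dex over vehicle in siBCOR cells (vertical) against siNON cells (horizontal); right, siBCOR over siNON in dex (vertical) against vehicle (horizontal). The axes of a panel share no libraries, dark points are called on both axes (36 genes left, 27 right), and no gene is called in opposite directions.

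Depletion of BCOR changed the nearest genes about as often as other genes in vehicle. There, 19 of 216 (8.80%) were higher and 18 (8.33%) lower in siBCOR than in siNON cells, against 8.87% and 8.23% of all genes. In dex, 43 (19.9%) were higher and 53 (24.5%) lower, against 20.7% and 18.8% of all genes. The median log2 fold change was 0.03 in vehicle and -0.03 in dex, against 0.02 in both over all genes. Genes with a peak at the promoter were higher in 12 and lower in 13 of 126 cases in vehicle, and higher in 25 and lower in 31 (24.6%) in dex. The vehicle counts depend on the scaling and the libraries, and the shares of all genes moved with them. With upper-quartile scaling 13 were higher and 19 lower (6.02% and 8.80%, against 6.01% and 7.99% of all genes). With DESeq2 16 were higher and 26 lower (against 7.62% and 10.7% of all genes). Without siNON vehicle replicate 3 there were 11 and 29 (5.09% and 13.4%, against 6.37% and 12.2%), and without siBCOR vehicle replicate 1 there were 12 and 11 (5.56% and 5.09%, against 5.38% and 5.56%). In bulk RNA, fewer cells of a kind and less RNA per cell cannot be told apart.

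SEMA3F, a secreted semaphorin that repels migrating cells and axons, fell after depletion in both treatments, and its peak (chr3:50192640-50192958) is centred 46 bases before the start. It stood at 5.46, 5.29, 5.71 and 4.70 CPM in siBCOR dex, against 12.1, 13.3, 15.5 and 11.5 CPM in siNON dex. In vehicle its values were 7.65, 9.69, 6.77 and 9.56 CPM in siBCOR vehicle, against 16.8, 15.6, 12.4 and 15.6 CPM in siNON vehicle. All siBCOR libraries lay below all siNON libraries of the same treatment, with log2 fold changes of -1.31 ± 0.133 (adjusted p = 4.07e-06) in dex and -0.84 ± 0.127 (adjusted p = 0.000327) in vehicle. The antisense gene SEMA3F-AS1 overlaps it, and no strand option is named for the counting, so their reads may not be separated.

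TCOF1 encodes treacle, a nucleolar protein needed for ribosomal RNA synthesis, and its peak (chr5:149737398-149737716) is centred 354 bases after the start. It stood at 199, 200.0, 200.2 and 186 CPM in siBCOR dex, against 387, 416, 409.9 and 336 CPM in siNON dex. In vehicle its values were 239.9, 263, 219.6 and 225 CPM in siBCOR vehicle, against 438, 399.6, 331 and 409.6 CPM in siNON vehicle. The groups were far apart, with log2 fold changes of -0.98 ± 0.0851 (adjusted p = 7.54e-07) in dex and -0.74 ± 0.0847 (adjusted p = 2.9e-05) in vehicle.

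ILK, whose promoter is shown above, has its peak at chr11:6624771-6625089. It stood at 43.2, 46.8, 43.8 and 42.4 CPM in siBCOR dex, against 71.2, 76.0, 74.2 and 66.5 CPM in siNON dex. In vehicle its values were 42.5, 46.9, 41.1 and 45.9 CPM in siBCOR vehicle, against 65.7, 58.8, 62.2 and 69.7 CPM in siNON vehicle. No siBCOR library reached a siNON library, and the log2 fold changes were -0.71 ± 0.0685 (adjusted p = 2.46e-06) in dex and -0.54 ± 0.0685 (adjusted p = 7.31e-05) in vehicle. TAF10 overlaps ILK in the annotation, and reads of their overlap may not be told apart. Other annotated genes also overlap BMP7 (BMP7-AS1), PCYT2 (NPB), TNS2 (SPRYD3 among others) and NXN, and reads of these overlaps may be split.

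Lower after depletion in both treatments were also GPS2, a subunit of the NCOR and HDAC3 corepressor complex with its peak 150 bases after the start (-0.48 in dex and -0.37 in vehicle), PCYT2 of phospholipid synthesis (-0.36 and -0.29) and KCNN3 (-0.69 and -0.59). The hormone and depletion comparisons of KCNN3 share libraries, and its values were 4.13, 4.98, 4.25 and 4.33 CPM in siBCOR dex, 2.05, 2.51, 1.63 and 2.55 in siBCOR vehicle, 6.81, 6.74, 8.47 and 6.45 in siNON dex and 3.46, 3.53, 3.30 and 2.84 in siNON vehicle. All 4 siBCOR libraries were thus below the siNON libraries of the same treatment, and dex libraries above vehicle libraries. CREB3L1 (-1.15, adjusted p = 0.0025), ICOSLG (-0.86, adjusted p = 0.00133), TNS2 (-0.66), EGR3 (-0.61), MSX2 (-0.45) and FOXA2 (-0.41) were called lower in dex. In vehicle 0 of these 6 was called, with CREB3L1 at -0.26 (adjusted p = 0.528) and ICOSLG at -0.43 (adjusted p = 0.0569).

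Other genes were higher after depletion. PDSS2, a subunit of the enzyme that makes the coenzyme Q side chain with its peak (chr6:107781047-107781365) 426 bases upstream, stood at 25.0, 25.1, 27.4 and 26.5 CPM in siBCOR dex, against 20.0, 20.2, 20.3 and 20.5 CPM in siNON dex. In vehicle its values were 28.2, 25.7, 28.8 and 26.2 CPM in siBCOR vehicle, against 19.7, 21.2, 18.3 and 19.5 CPM in siNON vehicle. The groups did not overlap, with log2 fold changes of 0.36 ± 0.0657 (adjusted p = 0.000801) in dex and 0.47 ± 0.0657 (adjusted p = 0.00017) in vehicle.

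**Figure D4:**
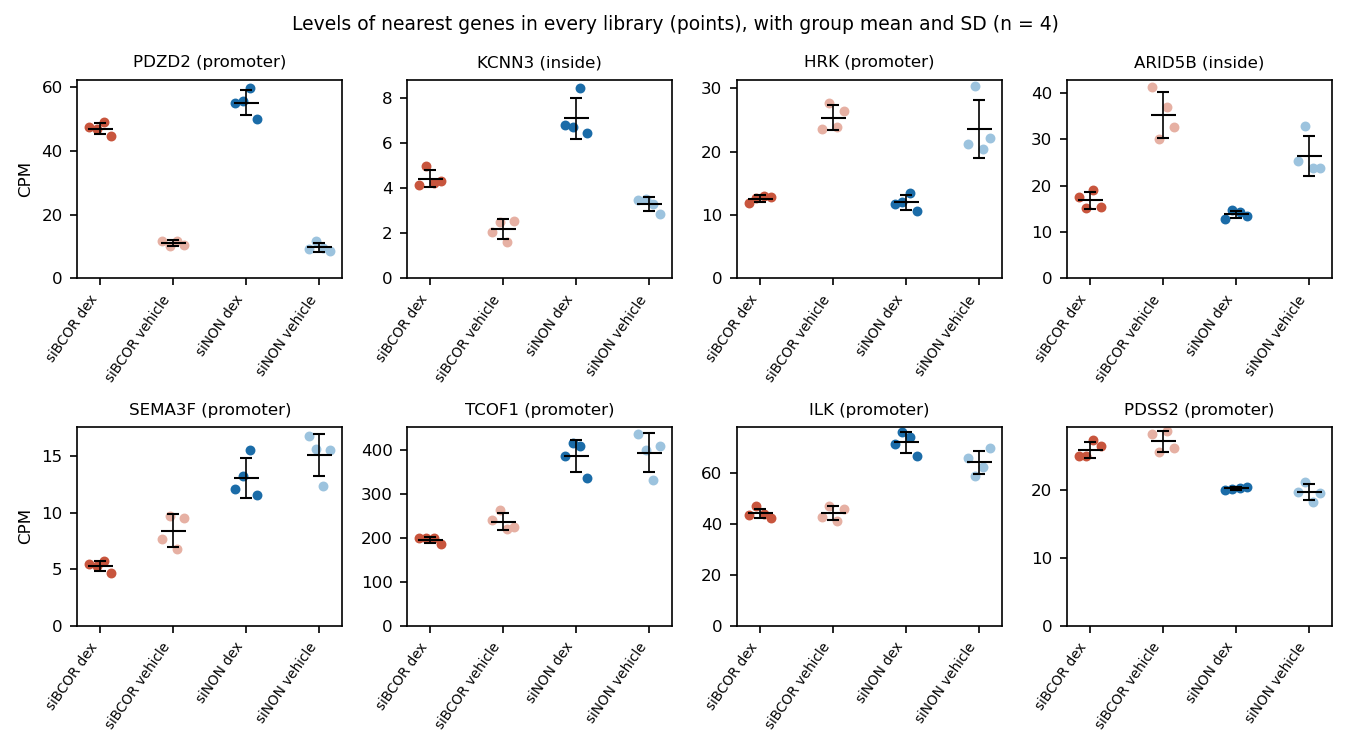
Level in CPM of 8 nearest genes in every library (points), with the group mean and SD (bars, n = 4), in siBCOR dex, siBCOR vehicle, siNON dex and siNON vehicle; the place of the peak is in brackets. PDZD2 and KCNN3 are higher with dex and HRK and ARID5B lower, whereas SEMA3F, TCOF1 and ILK are lower and PDSS2 higher with siBCOR.

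Other genes higher after depletion in dex and in vehicle were the guanine nucleotide exchange factor ARHGEF6 (0.38 and 0.39) and the rhophilin RHPN2 (0.25 and 0.39). CBX6, a chromobox subunit of canonical PRC1, rose in vehicle (0.38, adjusted p = 0.00892), and its call in dex (0.26, adjusted p = 0.0301) was lost in 8 of 22 alternatives, with an adjusted p of up to 0.103 without siBCOR dex replicate 3. The mitochondrial prolyl-tRNA synthetase PARS2 rose in vehicle (0.43, adjusted p = 0.00191), and in dex it stood at 0.29 (adjusted p = 0.0129) in a call that upper-quartile scaling ended. The largest named rises in dex were those of FAM160B1 (0.91), ZBTB10 (0.84), BBS10 of a cilium-linked chaperonin family (0.82), the pseudouridine synthase TRUB1 (0.74), ENPP4 (0.71), GCLM of glutathione synthesis (0.67) and the Hippo pathway factor TEAD1 (0.59). In vehicle these 7 genes had log2 fold changes between 0.16 and 0.45 and none was called. For BBS10 the siNON dex libraries stood at 15.6, 15.9, 15.8 and 24.3 CPM, the last being the library that stood apart, against 33.1, 30.3, 30.5 and 32.6 CPM in siBCOR dex.

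The 2 depletion comparisons share no libraries. Of the 43 genes higher in dex and the 19 higher in vehicle, 10 were the same genes (4.63% of the 216, against 4.32% of all genes tested). Of the 53 and 18 lower genes 17 were the same (7.87%, against 6.46% of all genes), with 0 opposite, against 11 of all 16432. These shares were near those of all genes. KCNH4 (-1.05 in dex and -1.38 in vehicle) was also called lower, with a mean of 22.8 counts per library, too few for the rule by which genes were named. It was chosen after its values were seen.

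Whether depletion altered the response to dex was asked with the interaction. It called 0 of the 216 genes, against 0.0183% of all genes higher and 0.0791% lower, and edgeR gave 39 of the 216 an unadjusted p under 0.05 (18.1%, against 19.3% of all genes), while DESeq2 also called 0. Without siNON dex replicate 4 it called 15 higher and 18 lower (15.3% in all), the same share as among all genes (15.3%). The response of PDZD2 was 0.41 lower on the log2 scale in siBCOR cells and that of MSX2 0.50 lower, each with an adjusted p of 0.195, so neither difference was called.

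Of the gene lists used, the PRC1.1 and PRC2 complexes, with 11 genes each, had 0 members among the nearest genes. Only 264 of the 27896 symbols are nearest genes, so short lists would hold few or 0 members in any case. Dex in siNON cells raised 1 and lowered 1 of the 11 PRC1.1 genes and raised 2 and lowered 1 of the PRC2 genes. Among all genes tested it raised 10.7% and lowered 8.64%. The 40 glucocorticoid-induced genes, of which 32 of 38 tested rose and 0 fell with dex in siNON cells, had 1 member, ERRFI1. Of 12 partners and corepressors of BCL6-type factors the member was CTBP2, a corepressor that fell with dex in siNON cells (-0.27, adjusted p = 0.00117) and was higher after depletion in dex (0.32, adjusted p = 0.000288). In vehicle CTBP2 stood at 0.19 (adjusted p = 0.0166), a call lost in 6 of 22 alternatives, with an adjusted p of up to 0.119 without siNON vehicle replicate 3. CTBP2 was 1 of 2 genes lowered with dex in siNON cells among the 11 of that list tested, of which 2 were raised.

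Developmental transcription factors that Polycomb complexes often bind gave 5 members of 132, beside 264 of all 27896 symbols. Among the 117 tested, dex in siNON cells lowered 74 and raised 8, with a median log2 fold change of -0.53 against -0.00 over all genes. Of all genes tested it lowered 8.64% and raised 10.7%, which also holds beside the lists below. PAX9, of tooth and thymus development, fell (-0.51 in siBCOR and -0.41 in siNON cells), and FOXA2, of endoderm, fell in siBCOR cells (-0.69, adjusted p = 0.000289). MSX2 was raised as above, and EVX2 stayed at or below 0.0522 CPM and was not tested. For TBX1 (-0.62, adjusted p = 0.0241) and FOXA2 (-0.35, adjusted p = 0.0405) in siNON cells the calls were lost in 4 and 12 of 22 alternatives, with adjusted p of up to 0.0763 and 0.101, both without siNON vehicle replicate 1. The growth factor list, in which dex in siNON cells raised 8 and lowered 21 of 63, held BMP7 and PDGFB. BMP7 fell by 0.55 in siBCOR and 0.51 in siNON cells, and PDGFB was called in siNON cells (-1.09, adjusted p = 0.000751) and stood at -0.57 in siBCOR cells (adjusted p = 0.0583). EGR3 was the member of 30 immediate early genes, of which dex in siNON cells raised 3 and lowered 12 of 28, and SEMA3F that of 74 adhesion and migration genes, where it raised 10 and lowered 22 of 72.

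At the loci where both kinds of peak stood side by side, the nearest genes gave the following hormone responses. NXN and ERRFI1 rose with dex, as given above. RFX6 stood at -0.12 in siBCOR cells (adjusted p = 0.522) and -0.41 in siNON cells (adjusted p = 0.0282), a call lost in 5 of 22 alternatives and with an adjusted p of 0.0820 without siNON vehicle replicate 3. SCAF11 (0.46 and -0.21), LEPROT (0.19 and 0.06) and CREB3L1 (-0.50 and 0.39) were not called with dex in siBCOR or siNON cells.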

How the data were processed

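RNA-seq reads over exons were deposited by the authors as raw counts for 65572 RefSeq transcripts in hg19, per the file headers from HOMER run without adjustment and with no strand option. The names of the count columns hold the word flip, and how strands were handled was not settled here. The deposited peak lists hold a score of 0 for every peak. The only other deposited column used was transcript length, given in bases per the file headers. The submitters' processing notes name Bowtie 0.12.9, HOMER 4.10.3, bedtools, Trimmomatic, TopHat2 and FastQC; how peaks were sorted into lists, and whether called per library, is not given in the sources used here.

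The transcript with the most reads stood for each of 27896 symbols, since isoforms share reads; 134 transcripts without a gene name (0.0664% of counts) were left out. Chosen transcripts held 18580294 to 28054808 counts per library. Peak centres were the floor of the mean of start and end, and starts came from all named transcripts. Genes were filtered with edgeR's default filter, scaled by TMM and tested by quasi-likelihood F tests with edgeR 4.0.16, limma 3.58.1 and R 4.3.3, in 1 fit of 4 group means over 16 libraries, two-sided, with Benjamini-Hochberg adjustment over all genes tested. Errors of log2 fold changes are SE. CPM and RPKM were computed from the counts with TMM scaling. DESeq2 1.42.0, upper-quartile scaling, no low-count filter, a replicate block, libraries left out, other windows and other choices of nearest gene were alternatives.

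Named genes are BCOR and nearest genes that meet at least 1 of these criteria: in each comparison the 8 with the largest called rise and the 8 with the largest called fall, averaging 50 or more counts and with groups that do not overlap; genes of 2 peaks; the 10 promoter peaks closest to a start; the 5 highest per length; list members; and genes of the 5 peaks closest to a dex-enriched peak. Any other gene was named after its values were seen. A few genes that meet the criteria are not reported here. The members and lists were chosen with earlier results of these data known. The lists are PRC1.1, PRC2, BCL6-type partners and corepressors, glucocorticoid-induced, Polycomb-type developmental, immediate early, growth factor, and adhesion genes. The labels call the 4 RNA libraries of a group biological replicates, while the series text names 3; separate cultures are not described, so p-values measure the spread between these samples. No hg19 sequence was used, so motifs in peaks were not analysed here. The model was tested on simulated counts.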

Additional observations from a re-analysis of the deposited data

Results flagged for a closer look

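Among 264 groups of 4 libraries of named genes that were looked at, 14 held a library set apart from its mates by more than Dixon's 95% critical value, which chance gives in about 1 group in 20. Of these, 5 are siNON dex replicate 4, the library that stood apart over all genes. It had 4.99 CPM of CSGALNACT1 (its mates 3.72 to 3.90) and 24.3 CPM of BBS10 (15.6 to 15.9), and was low in MSX2 at 25.2 CPM (29.7 to 30.2), FOXA2 at 5.61 CPM (6.72 to 6.86) and NXN at 74.3 CPM (88.2 to 90.1). In siNON vehicle, replicate 3 was high in ENPP4 at 38.8 CPM (23.5 to 24.9) and SCAF11 at 103 CPM (58.7 to 64.9).

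Replicate 2 of siNON vehicle was high in HRK at 30.3 CPM (20.4 to 22.1) and ARID5B at 32.9 CPM (23.9 to 25.3), and low in ANKRD9 at 31.3 CPM (34.5 to 34.7). In siNON dex, replicate 2 was low in ARHGEF6 at 17.5 CPM (20.1 to 20.4). In siBCOR dex, replicate 4 was low in TCOF1 at 186 CPM (199 to 200.2), replicate 3 was low in PTPRB at 2.92 CPM (3.34 to 3.41), and replicate 2 was high in PDGFB at 1.02 CPM (0.730 to 0.758). The hormone calls of HRK, ARID5B, CSGALNACT1, MSX2 and NXN and the depletion calls of TCOF1, ENPP4, BBS10 and ARHGEF6 held when each library was left out in turn. Other calls of these genes were lost in some of those fits. With dex these were the fall of FOXA2 in siNON cells in 9, the rise of BBS10 in siBCOR cells in 6 and the call of TCOF1 in siBCOR cells in 4. The depletion calls in dex of SCAF11 were lost in 7 and of ANKRD9 in 2, and those in vehicle of ARID5B in 5 and of PTPRB in 3.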

How the results depend on the processing

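Of 132 calls of named genes, 99 were kept in all 22 alternatives, 33 were lost in at least 1, and none changed direction. Counts of nearest genes called ranged, with each library left out in turn, over 41 to 66 for dex in siNON cells, 49 to 71 for dex in siBCOR cells, 67 to 116 for depletion in dex, 23 to 50 for depletion in vehicle and 0 to 33 for the interaction, whose highest count was without siNON dex replicate 4. The shares of all genes moved too. Without that library 30.6% of members were called for dex in siNON cells, against 24.4% of all genes. For depletion in dex it was 53.7%, against 49.3%, and for the interaction 15.3% of both. Leaving out both libraries that stood apart (siNON dex 4, siNON vehicle 3), depletion in vehicle called 58 (26.9%, against 24.3% of all genes) and the interaction 19 (8.80%, against 10.8%); a fit of only the groups compared called 20 for depletion in vehicle (9.26%, against 9.38%). The cause was not tested. A promoter window of 500 or 2500 bases put 41.2% or 56.2% of peaks at promoters and 38.2% or 26.2% inside genes, by construction; 48 peaks lay within 5 kb of another list, and 78.4% of genes reached 1 CPM, against 70.1% at 1 RPKM. Replicate numbers marked no pairing in the medians: residuals of same-numbered libraries correlated at a median of -0.007 (24 pairs), against 0.003 (72 pairs of different number). Single pairs ranged widely, from -0.526 to 0.503 for the same number and from -0.643 to 0.654 for different numbers. The highest was between siNON dex replicate 4 and siNON vehicle replicate 3. With the replicate block, the fits called 53 genes (24.5%, against 18.4% of all genes) for dex in siNON cells. For dex in siBCOR cells they called 61 (28.2%, against 22.8%). Depletion called 33 in vehicle (15.3%, against 16.2%) and 95 in dex (44.0%, against 39.1%), and the interaction 0 (against 0.0183%). Peak sequences were not searched, so the narrower motif window was not run. Peaks carry no depth or strength, a low-read gene (48 of 264) could not be called, and nearest genes of distant peaks rest on distance alone.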
